A study of Homo sapiens and Mus musculus with 19 samples.

Results

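The genes described here encode the CXC chemokines that attract neutrophils, CXCL1, CXCL2, CXCL3, CXCL5, CXCL6 and CXCL8 in human lung cancer lines and Cxcl1, Cxcl2 and Cxcl5 in a mouse line. They were found by symbol among the probe sets that name 1 gene only, which gave 11 human and 5 mouse probe sets. The probe set with the highest mean log2 signal stood for each gene. This made 6 of 19775 human and 3 of 18194 mouse genes measured, of which 6 and 2 passed the filter on dim genes described below. The study measured total RNA of retrovirally transduced, GFP-sorted lung cancer cells on single-colour Affymetrix arrays. The 15 human arrays covered 5 established lines, A549, H23, H358, HCC827 and PC9, with 1 array for each line and vector, and the 4 mouse arrays covered the Lewis lung carcinoma line, LLC, with 2 arrays for each vector.

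The IKKb vector carried activated IKK beta, with serines 177 and 181 changed to glutamate, the IkB_SR vector carried the IkB alpha super-repressor, with serines 32 and 36 changed to alanine, and MiG was the empty control virus that all groups share as a backbone. Human lines carried IKKb, IkB_SR or MiG, and LLC carried IKKb or MiG. LLC is named LLC-kB OVA in the sample titles, and the labels do not say what the added words mean. The labels do not say whether cells are single clones or whether arrays of a group come from separate cultures. The LLC p-values thus measure a spread between arrays that may be technical. The human p-values measure how differences between vectors vary from line to line, together with array noise.

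These chemokines carry the ELR motif before their first cysteines and act on the receptors CXCR1 and CXCR2, which neutrophils display. Epithelial and tumour cells secrete them after inflammatory stimulation, and their genes are textbook targets of the transcription factor NF-kB. IKK beta activates NF-kB by marking IkB alpha for destruction, and the super-repressor form cannot be marked and holds NF-kB in the cytoplasm. Mice have no CXCL8 gene.

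Signals are MAS5 values on a linear scale that the authors had scaled to a trimmed mean of 500 on each array, so a difference in total RNA between samples cannot be seen. A signal below the 40th percentile of its own array is called dim here; that percentile lay between 28.7 and 44.98 on human arrays and between 30.1 and 39.6 on LLC arrays. A gene was tested when it was not dim on at least 5 human or 2 mouse arrays. Fold changes and standard errors come from limma on log2(signal + 16), which understates the change of dim genes, and adjusted p-values are Benjamini-Hochberg values over all genes of a comparison with a threshold of 0.05. In bulk RNA, fewer cells that express a gene and less RNA per cell cannot be told apart.

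The transduced genes gave only a partial check of the labels. NFKBIA, the gene of IkB alpha, gave IkB_SR to MiG signal ratios above 1 for A549, H358, HCC827 and PC9 (1.60, 4.07, 7.08 and 6.05). The array labelled H23 IkB_SR gave 0.782 and so showed no rise over MiG. Its NFKBIA signal, 7292, was close to those of the A549 and PC9 IkB_SR arrays, 7343 and 7167. The H23 MiG signal was already 9329, against 1185 to 4581 with MiG in the other lines. IKKb to MiG ratios of NFKBIA were 3.91 in H358, 3.34 in HCC827 and 1.07 to 1.17 in A549, H23 and PC9. NFKBIA was thus also higher than with MiG on arrays without the super-repressor, so its ratio alone cannot decide whether the H23 label is right. With the brightest probe set, IKBKB signals were 0.794 to 1.03 times those of MiG on the 5 human IKKb arrays. Ikbkb signals were 1.26 and 1.14 times those of MiG on the LLC arrays. Another IKBKB probe set was higher with IKKb in every line, at ratios of 1.43, 3.34 and 1.77 in A549, H23 and H358. In HCC827 and PC9 it read 116 and 79.9, against 28.8 and 26.9 with MiG, both dim. The remaining IKBKB probe set gave 0.689 to 1.35. Whether these probe sets read the transgene is not given in the sources used here, so these ratios cannot settle the labels. The H358 IKKb array stood apart from its H358 partners in the Dap spike-in, with a mean signal of 2219 against 611 with IkB_SR and 628 with MiG, and in the actin 3' to 5' signal ratio, at 1.74 against 1.03 to 1.41 on the other 14 human arrays. The PC9 MiG array also had a lower mean Dap signal than its partners, 1497 against 2519 with IkB_SR and 2716 with IKKb. Fits without that array alone were not run. For the human chemokine genes described here, fitted fold changes that rest on the H358 IKKb array or the array labelled H23 IkB_SR are given with and without it. Those of all other genes and of further probe sets are given with both arrays only. KRT8 and KRT18, keratins of simple epithelium, were not dim on any human or LLC array, whereas Cdh1, the epithelial cadherin, was dim on all 4 LLC arrays.

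The 6 human genes lie in one cluster on chromosome 4, in the order CXCL8, CXCL6, PF4V1, CXCL1, PF4, PPBP, CXCL5, CXCL3 and CXCL2 for the chemokine genes looked up. The promoter stretches below, from RefSeq on GRCh38.p14 and in gene orientation, are shown because most of these genes moved together between the vectors. Capitals mark GGAATTTCC, the longest run that all 6 promoters share in their 250 bases before to 50 bases after the start; it was chosen after the sequences were seen.
CXCL1 chr4:73869285-73869373 plus strand: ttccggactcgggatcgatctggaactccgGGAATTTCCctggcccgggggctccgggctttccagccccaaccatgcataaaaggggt
CXCL2 chr4:74099214-74099302 minus strand: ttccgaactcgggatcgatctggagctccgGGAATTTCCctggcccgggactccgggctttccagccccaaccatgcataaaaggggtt
CXCL3 chr4:74038709-74038797 minus strand: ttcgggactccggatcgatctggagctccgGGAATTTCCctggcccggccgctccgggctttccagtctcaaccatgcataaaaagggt
CXCL5 chr4:73998709-73998797 minus strand: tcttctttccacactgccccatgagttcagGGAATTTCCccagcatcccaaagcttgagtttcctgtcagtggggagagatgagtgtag
CXCL6 chr4:73836559-73836647 plus strand: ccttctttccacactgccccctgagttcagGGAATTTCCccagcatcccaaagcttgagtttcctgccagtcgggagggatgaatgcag
CXCL8 chr4:73740448-73740536 plus strand: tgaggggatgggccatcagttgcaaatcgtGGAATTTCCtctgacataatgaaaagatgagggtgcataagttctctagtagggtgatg

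Each promoter held the run once, on the strand of the gene, beginning 78, 77, 78, 90, 89 and 91 bases before the start of CXCL1, CXCL2, CXCL3, CXCL5, CXCL6 and CXCL8. On either strand the run occurred in 162 of 35116 promoters of the same length, or 0.461%. The NF-kB consensus, searched by its published letters on both strands and overlapping this run, was found in 5 of the 6, all but CXCL8, and in 7.73% of all promoters. Aligned over the whole window, promoter identity was 82.5% between CXCL1 and CXCL3, 71.9% between CXCL1 and CXCL2, 73.8% between CXCL2 and CXCL3 and 83.1% between CXCL5 and CXCL6, against 45.2% to 55.4% for the other pairs. The CXCL5 and CXCL6 stretches are near copies, yet these genes were not bright in the same lines.

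Against IkB_SR, the IKKb arrays carried higher CXCL1, CXCL2 and CXCL3 in 5 of 5 lines, and these 3 genes passed the test, CXCL2 with the brightest of its 3 probe sets only. CXCL8 and CXCL5 had fitted differences of similar size without passing it, with wide differences between lines, and CXCL6 was dim on most arrays. In the comparisons of either vector with MiG no gene passed the limma test.

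CXCL1, CXCL2 and CXCL3 encode close relatives once called the GRO chemokines, which act mainly on CXCR2. A549, H23, H358, HCC827 and PC9 had CXCL1 signals of 1993, 1806, 1668, 627 and 288 with IKKb. With IkB_SR the signal was 1438, 1519, 216, 4.46 and 43.2 in the same order of lines, and with MiG 1232, 1493, 552, 115 and 125. The IKKb signal was the highest of the 3 in every line, by little in A549 and H23 and by much in the other 3 lines, and the HCC827 IkB_SR array was dim. IKKb signals exceeded those with IkB_SR 7.71-fold in H358, 6.68-fold in PC9 and at least 19.8-fold in HCC827, where the bound takes the array's 40th percentile in place of the dim value.

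For CXCL2, the IKKb arrays of A549, H23, H358, HCC827 and PC9 gave signals of 2148, 2314, 2448, 2475 and 205. IkB_SR arrays gave 1616, 1110, 242, 161 and 33.1 in that order of lines, the last of them dim, and MiG arrays gave 1633, 2110, 505, 306 and 100.0. All lines but PC9 thus reached nearly the same CXCL2 signal with IKKb, although their MiG signals spanned a wide range, and PC9 lay far below. The ratio of IKKb to IkB_SR was 1.33 and 2.08 in A549 and H23, at least 6.19 in PC9, and 10.1 and 15.4 in H358 and HCC827. The next CXCL2 probe set, 1569203_at, was dim on 8 of 15 arrays and lower with IKKb in A549, at 74.0 against 87.7 with IkB_SR, and in HCC827, at 27.3 (dim) against 38.1.

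CXCL3 was dimmer, with IKKb signals of 926, 111, 714, 379 and 80.1 in A549, H23, H358, HCC827 and PC9. In the same order they were 469, 76.4, 106, 25.2 and 20.9 with IkB_SR, where HCC827 and PC9 were dim, and 644, 117, 111, 105 and 84.1 with MiG. In H358 the IkB_SR and MiG signals of CXCL3 were nearly equal and IKKb lay far above both, whereas in PC9 the IKKb and MiG signals were nearly equal and IkB_SR lay below. CXCL1 and CXCL2 in PC9 instead had IKKb signals 2.31-fold and 2.05-fold over MiG.

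**Figure D1:**
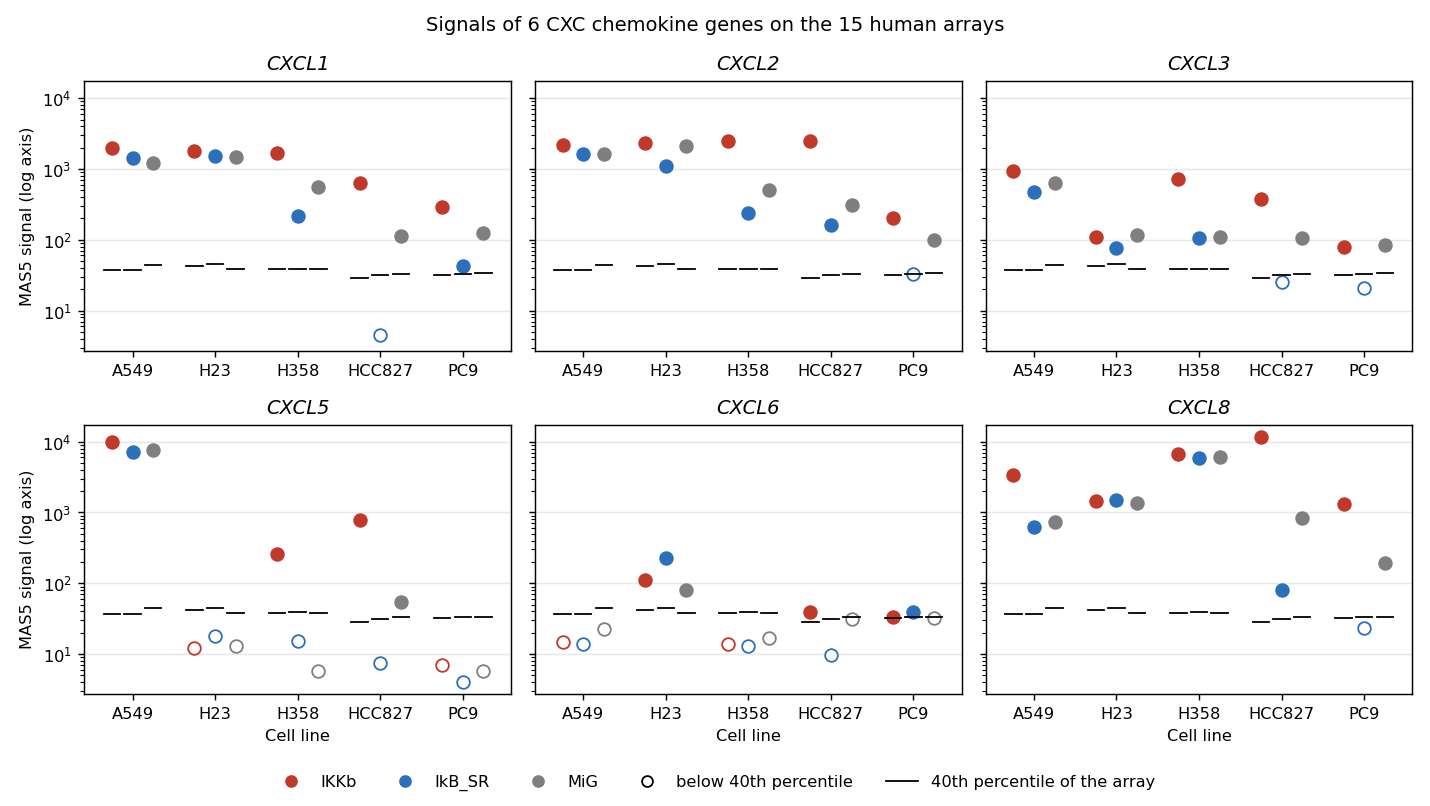
MAS5 signal (log axis) of each gene on the 15 human arrays, by cell line, with IKKb, IkB_SR and MiG from left to right; short lines mark the 40th percentile of each array and open circles lie below it. CXCL1 to CXCL3 and CXCL8 were dim on 1 or 2 arrays each, all with IkB_SR, CXCL5 and CXCL6 on 9 of 15, and only A549 carried CXCL5 above dim level with all 3 vectors, at 7145 or more.

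CXCL5, another CXCR2 ligand, was close to an all-or-none signal. In A549 it read 10025 with IKKb, 7145 with IkB_SR and 7666 with MiG. It was dim on all 3 arrays of H23 and of PC9, with signals of 4.002 to 18.2. Outside A549, 3 arrays were not dim, H358 IKKb at 258, HCC827 IKKb at 777 and HCC827 MiG at 53.8, against 15.1 and 7.56 on the H358 and HCC827 IkB_SR arrays and 5.68 on the H358 MiG array. The IKKb to MiG ratio was at least 6.76 in H358, 14.4 in HCC827 and 1.31 in A549. Another CXCL5 probe set, 215101_s_at, gave 54.8 and 201 on those IKKb arrays and was dim on the 4 other H358 and HCC827 arrays, whereas 207852_at was dim on all 6 arrays of these lines, at 14.4 and 2.18 with IKKb. In A549, 215101_s_at read 12612, 8990 and 6477 with IKKb, IkB_SR and MiG, and 207852_at read 370, 290 and 144. The order of IkB_SR and MiG in A549 thus depends on the probe set.

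CXCL6, which unlike CXCL5 also acts on CXCR1, was measured above dim level mainly in H23, at 113 with IKKb, 228 on the array labelled H23 IkB_SR and 79.5 with MiG. It was dim on every A549 and H358 array, with signals of 13.1 to 22.7. In HCC827 it read 39.7, 9.81 and 31.3 with IKKb, IkB_SR and MiG, against dim limits of 28.7, 31.6 and 33.1, and in PC9 33.0, 39.0 and 32.6, against limits of 32.2, 33.1 and 33.8. The IKKb to MiG ratio of CXCL6 was 1.42 in H23 and at least 1.20 in HCC827.

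CXCL8 encodes interleukin-8, which binds both CXCR1 and CXCR2. A549, H23, H358, HCC827 and PC9 had signals of 3358, 1459, 6646, 11728 and 1304 with IKKb. IkB_SR arrays gave 616, 1516, 5878, 79.7 and 23.1 in this order, the PC9 one dim, and MiG arrays 728, 1352, 6090, 833 and 194. In H23 and H358 the vectors hardly differed, with IKKb to IkB_SR ratios of 0.963 and 1.13, whereas this ratio was 5.45 in A549, 147 in HCC827 and at least 39.4 in PC9. The second probe set of CXCL8, 211506_s_at, gave 724 with IKKb, 1146 with IkB_SR and 1190 with MiG in H358, so that the direction there depends on the probe set.

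The gene with the highest ratio was not the same in every line. H358 had CXCL1, CXCL2 and CXCL3 IKKb signals 3.02-fold, 4.85-fold and 6.46-fold over MiG, and CXCL8 at 1.09-fold. With the brightest probe sets A549 had the reverse pattern, with CXCL8 at 4.61-fold and the other 4 genes that were not dim there at 1.31-fold to 1.62-fold. Further probe sets in A549 gave 1.95-fold (215101_s_at) and 2.56-fold (207852_at) for CXCL5. They gave 0.932-fold for CXCL2 (1569203_at) and 6.67-fold for CXCL8 (211506_s_at). H23 had ratios of 0.945 to 1.42 for the 5 genes that were not dim. With 1 array for each line and vector these differences between lines were not tested.

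**Figure D2:**
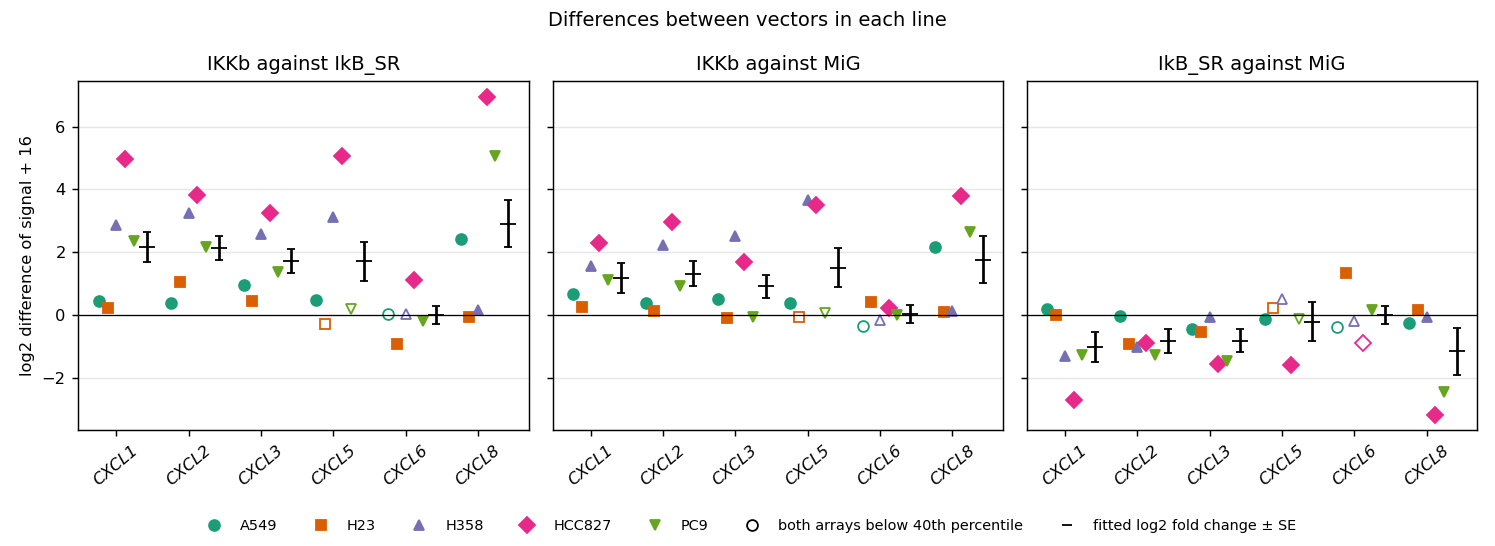
Difference of log2(signal + 16) between vectors in each line for the 6 genes, in 3 panels (IKKb against IkB_SR, IKKb against MiG, IkB_SR against MiG), with the fitted log2 fold change and its standard error as a black bar; open symbols mark pairs in which both arrays are dim. HCC827 holds the highest IKKb against IkB_SR difference for every gene, up to 6.94 for CXCL8.

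In the fit of IKKb against IkB_SR over 5 lines, 3 of the 6 genes passed the threshold, all higher with IKKb; 0.611% of the 15212 genes tested passed in that direction. CXCL1 had a log2 fold change of 2.18 ± 0.47 (SE; 4.54-fold; limma adjusted p = 0.0451). CXCL2 stood at 2.14 ± 0.39 (4.40-fold; limma adjusted p = 0.0239) and CXCL3 at 1.73 ± 0.37 (3.32-fold; limma adjusted p = 0.0408). The CXCL2 probe set 1569203_at gave 0.52 ± 0.32 (1.43-fold; limma adjusted p = 0.554), and adjusted over all probe sets CXCL1 missed the threshold (limma adjusted p = 0.0535). These 3 were higher with IKKb in 5 of 5 lines, as were 4.51% of all genes. The median log2 fold change of the 6 genes was 1.93, against -0.01 over all genes.

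CXCL8 had the largest fitted difference of the 6, 2.91 ± 0.74 on the log2 scale (7.52-fold; 95% interval 1.32 to 4.50), without passing (limma adjusted p = 0.0907), and was higher in 4 of 5 lines. CXCL5 lay at 1.72 ± 0.62 (95% interval 0.41 to 3.04; limma adjusted p = 0.229), with 4 of the 5 IkB_SR arrays dim. CXCL6 lay at 0.02 ± 0.29, with an interval of -0.60 to 0.64 (limma adjusted p = 0.986).

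The calls were lost when some single lines were left out, which also leaves fewer arrays for the test. Without H358, HCC827 or PC9 none of the 6 genes passed. In those fits CXCL1 stood at 2.01, 1.48 and 2.14 (limma adjusted p = 0.157, 0.145 and 0.191), CXCL2 at 1.86, 1.72 and 2.13 (0.0763, 0.0849 and 0.111) and CXCL3 at 1.51, 1.35 and 1.82 (0.0899, 0.198 and 0.125). With all lines these 3 genes stood at 2.18, 2.14 and 1.73, so the calls lost without PC9 came with little change in fold change. Without A549, CXCL3 alone was lost, at 1.92 (limma adjusted p = 0.0712), and without H23 all 3 calls held. Over the omissions of 1 line, CXCL1 ran from 1.48 (without HCC827) to 2.67 (without H23), CXCL2 from 1.72 to 2.57 and CXCL3 from 1.35 to 2.05. Without the H358 IKKb array, CXCL2 passed at 1.89 (limma adjusted p = 0.0462) and CXCL8 at 3.46 (0.0488), while CXCL1 at 2.05 (0.0951) and CXCL3 at 1.42 (0.0857) did not. Without the array labelled H23 IkB_SR, CXCL1 passed at 2.55 (limma adjusted p = 0.0343) and CXCL2 at 2.26 (0.0360), and CXCL3 missed the threshold at 1.92 (0.0537). CXCL5 stood at 1.28 and CXCL6 at 0.04 without the H358 IKKb array, and CXCL5, CXCL6 and CXCL8 at 2.03, 0.31 and 3.44 without the array labelled H23 IkB_SR.

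**Figure D3:**
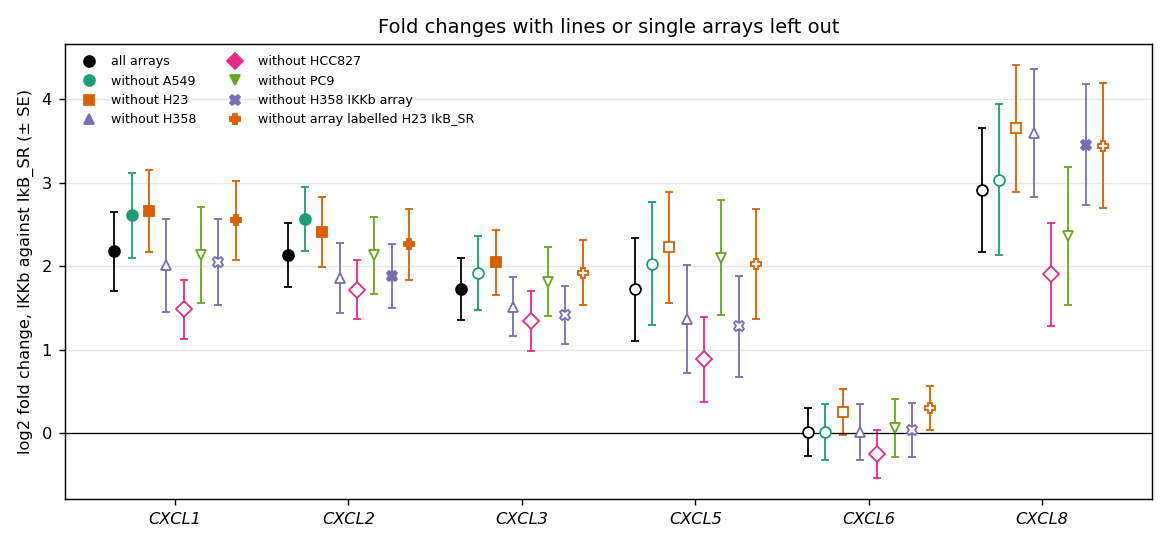
Log2 fold change of IKKb against IkB_SR with its standard error for the 6 genes, fitted on all 15 human arrays, without each line in turn, and without the H358 IKKb array or the array labelled H23 IkB_SR; filled symbols have a limma adjusted p under 0.05. Estimates without HCC827 are the lowest for all 6 genes, 1.48 for CXCL1 and 1.90 for CXCL8, and CXCL6 has the one estimate below 0, at -0.25.

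The comparison of IKKb with MiG sets cells with added kinase activity beside cells with their own pathway alone. It called 0 of the 6 genes and 0% of all 15212 genes in the limma fit, although 839 of these had an unadjusted limma p under 0.05 (5.52%). Among the 6, 5 had such a p. Log2 fold changes were 1.19 ± 0.47 for CXCL1, 1.33 ± 0.39 for CXCL2, 0.92 ± 0.37 for CXCL3, 1.52 ± 0.62 for CXCL5 and 1.77 ± 0.74 for CXCL8 (limma adjusted p = 0.878 for each), and 0.04 ± 0.29 for CXCL6 (0.988). CXCL1, CXCL2 and CXCL8 were higher with IKKb in 5 of 5 lines, a pattern that 3.29% of all genes showed. Without the H358 IKKb array, CXCL1, CXCL2, CXCL3, CXCL5, CXCL6 and CXCL8 lay at 1.06, 1.08, 0.62, 1.08, 0.06 and 2.32. The median of the 6 was 1.26, against -0.01 over all genes.

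IkB_SR against MiG sets the blocked pathway beside its own activity in the line. Again 0 of the 6 and 0% of all genes passed the limma test. An unadjusted p under 0.05 was found for 675 of 15212 genes (4.44%) and for 1 of the 6, CXCL3. CXCL2 and CXCL3 were lower with IkB_SR in 5 of 5 lines, as were 3.71% of all genes, with log2 fold changes of -0.81 ± 0.39 and -0.80 ± 0.37 (limma adjusted p = 0.995 for each). CXCL1 lay at -0.99 ± 0.47, CXCL8 at -1.14 ± 0.74, CXCL5 at -0.20 ± 0.62 and CXCL6 at 0.02 ± 0.29, and the median of the 6 was -0.81, against -0.00 over all genes. In HCC827 the IkB_SR signal of CXCL8 was 0.0956 of the MiG signal, in PC9, where the IkB_SR array was dim, it was at most 0.171 of it, and in A549, H23 and H358 it was 0.847, 1.12 and 0.965 of it. Without the array labelled H23 IkB_SR, CXCL1, CXCL2, CXCL3, CXCL5, CXCL6 and CXCL8 lay at -1.36, -0.93, -0.998, -0.51, -0.27 and -1.67. The 3 comparisons share arrays and are not independent of each other.

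Levels also differed between the lines. All 6 genes passed the limma F test over the 5 lines with the vector as a term, at adjusted p from 6.65e-07 (CXCL5) to 0.00486 (CXCL8), but so did 86.7% of all genes, and without A549 4 of the 6 did. Mean Dap spike-in signals were 123 to 134 on the A549 arrays and 611 to 2716 on the other human arrays. Differences in array handling between lines thus cannot be told apart from differences in line level. The 3 arrays of a line carry different vectors, so the SDs that follow include the vector's effect. Mean CXCL5 signal was 8279 ± 1535 in A549 and 279 ± 431 in HCC827, the next line (SD, n = 3 each), and the neighbours differed by 6.23 ± 0.79 in log2 (limma adjusted p = 9.70e-06; 60.1% of all genes passed for this pair of lines). Below HCC827, neighbouring lines in CXCL5 order (H358, H23, PC9) did not pass.

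CXCL1 ran H23, A549, H358, PC9, HCC827 from the highest mean log2 signal down, and of the neighbours only H358 and PC9 passed (limma adjusted p = 0.00816; 53.1% of all genes). CXCL2 ran A549, H23, H358, HCC827, PC9, with H23 against H358 (limma adjusted p = 0.0291; 59.6% of all genes) and HCC827 against PC9 (0.00150; 50.4%) passing. CXCL3 ran A549, H358, HCC827, H23, PC9, with A549 against H358 passing (limma adjusted p = 0.00987; 58.7% of all genes). CXCL6 was highest in H23, which passed against PC9 (limma adjusted p = 0.00303; 55.7% of all genes), and no other neighbours did. CXCL8 ran H358, H23, A549, HCC827, PC9 with no neighbouring pair past the threshold (limma adjusted p from 0.0737 to 0.841). A549 thus led for CXCL2, CXCL3 and CXCL5, H23 for CXCL1 and CXCL6 and H358 for CXCL8, although A549 and H23 were not told apart for CXCL1 or CXCL2.

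After each line's mean was taken off, signals of CXCL1, CXCL2 and CXCL3 ran together over the 15 arrays, with Pearson correlations of 0.93 between CXCL1 and CXCL2, 0.92 between CXCL1 and CXCL3 and 0.94 between CXCL2 and CXCL3. CXCL5 correlated with them at 0.85 to 0.91 and CXCL8 at 0.74 to 0.86, while CXCL6 correlated with the other 5 at 0.17 to 0.43. The points share vector, line and array, and near-identical probes may bind more than 1 of CXCL1, CXCL2 and CXCL3, so these values are descriptions only.

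The 5 other genes whose line-centred signal ran closest to the mean of the 6 over 15 arrays were C3 (r = 0.99), the central complement component, KLF10 (0.98), a zinc-finger transcription factor, TPRA1 (0.96), IKBKE (0.96), an IKK-related kinase, and SLPI (0.94), a secreted inhibitor of neutrophil elastase. C3 signals were 1993, 147, 430, 4327 and 2684 with IKKb in A549, H23, H358, HCC827 and PC9, against 762, 89.3, 64.8, 151 and 926 with IkB_SR and 1015, 121, 82.8, 663 and 1620 with MiG. C3 was highest with IKKb and lowest with IkB_SR in every line. The fitted IKKb to IkB_SR ratios were 4.40 for C3, 1.41 for KLF10, 1.46 for TPRA1, 2.04 for IKBKE and 1.88 for SLPI. The genes were chosen by their likeness over the same arrays, so these ratios are descriptions with no test.

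For single members the closest genes were WNT10A, a secreted Wnt ligand, for CXCL1 (r = 0.96), the soluble pattern recognition protein PTX3 for CXCL2 (0.98), TPRA1 for CXCL3 (0.98), SLC12A7, a potassium-chloride cotransporter, for CXCL5 (0.97), AHCTF1 for CXCL6 (0.94) and complement factor B, CFB, for CXCL8 (0.94). PTX3 was dim on the 3 A549 arrays and on the HCC827 IkB_SR array and read 6641, 1998, 2109 and 4608 with IKKb in H23, H358, HCC827 and PC9, against 1967, 47.0, 31.0 and 705 with IkB_SR and 2569, 131, 102 and 3165 with MiG. The fitted IKKb to IkB_SR ratio was 7.64 for PTX3, 3.38 for CFB, 2.54 for WNT10A, 1.36 for SLC12A7 and 0.976 for AHCTF1.

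The receptors CXCR1 and CXCR2 and the scavenging receptor ACKR1 were dim on all 15 human arrays, with signals of at most 31.0, and were not tested. Of the other chemokine genes of the cluster, PPBP and PF4V1 were dim on 14 of 15 arrays, and PF4, a platelet chemokine, was the one tested, at 0.03 ± 0.30 in IKKb against IkB_SR (limma adjusted p = 0.979).

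Among genes of neutrophil growth and the wider inflammatory programme (CSF2, CSF3, IL1A, IL1B, TNF, IL6, CCL20, LCN2, S100A8, S100A9 and SAA1), 9 of 11 were measured, 7 were tested and 0 passed in IKKb against IkB_SR. CSF3, the neutrophil growth factor, was dim on all 15 arrays. All 7 fitted values were above 0, with a median of 0.96, against -0.01 over all genes. The smallest p belonged to IL6, a cytokine gene, at 2.09 ± 0.47 (limma adjusted p = 0.0532), followed by CCL20, a chemokine for lymphocytes and dendritic cells, at 3.28 ± 0.84 (0.0910). IL6 signals spread from 71.3 in A549 to 12461 in HCC827 with IKKb, from 25.7 in A549 to 325 in HCC827 with IkB_SR and from 28.8 in A549 to 1617 in HCC827 with MiG. The line with the most CXCL8 under IKKb, HCC827, was thus also the one with the most IL6.

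Of the co-regulators and mRNA decay factors that act on these transcripts (NFKBIZ, RELA, NFKB1, CEBPB, CEBPD, IL17RA, IL17RC, TRAF3IP2, ZFP36, ZFP36L1 and ZC3H12A), 10 of 11 were measured and tested, 1 rose in IKKb against IkB_SR and 0 fell, with a median of 0.13; 0.322% of all genes fell. The one that rose was NFKB1, an NF-kB subunit gene that NF-kB itself induces, at 0.85 ± 0.10 (limma adjusted p = 0.00143). Its signals were 1242, 1198, 1579, 1567 and 800.2 with IKKb in A549, H23, H358, HCC827 and PC9, 816, 521, 976, 706 and 502 with IkB_SR, and 1037, 882, 1150, 1009 and 706 with MiG. NFKB1 was lower on the array labelled H23 IkB_SR than on H23 MiG, and its ratio of IKKb to IkB_SR was higher in H23 than in the other 4 lines, while on these H23 arrays the ratio was 1.19 for CXCL1, 2.08 for CXCL2, 1.45 for CXCL3, 0.496 for CXCL6 and 0.963 for CXCL8. None of these lists had a gene past the threshold in IKKb against MiG or IkB_SR against MiG.

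Markers of other cells that a sorted culture could hold were read beside these results. Of 7 leukocyte markers (PTPRC, CD3E, CD14, CSF1R, LYZ, ITGAM and CD68), 6 were measured and 4 tested. ITGAM, an integrin chain of myeloid cells, passed in IKKb against IkB_SR at 1.72 ± 0.34 (limma adjusted p = 0.0327), and 0 passed as lower. ITGAM lay at 0.21 ± 0.34 in IKKb against MiG and -1.51 ± 0.34 in IkB_SR against MiG, neither past the threshold. In IKKb against IkB_SR, CD14 lay at -1.04 ± 0.32 (limma adjusted p = 0.164), CD3E at -0.34 ± 0.32 and CSF1R at 0.09 ± 0.21. The median of the 4 was -0.12. The summed signal of the leukocyte markers ran from 214 to 887 with IKKb, 166 to 468 with IkB_SR and 227 to 664 with MiG. PTPRC, which all leukocytes express, was dim on 14 of 15 arrays, at no more than 37.3. Of 5 neutrophil markers (FCGR3B, MPO, ELANE, CSF3R and S100A12), 3 were tested and 0 passed, with summed signals of 85.4 to 171 with IKKb, 94.97 to 193 with IkB_SR and 120 to 241 with MiG. FCGR3B, MPO, ELANE, CSF3R and S100A12 were dim on 12, 9, 13, 7 and 10 of 15 arrays, with CSF3R at up to 113. S100A12 lay at -0.68 ± 0.25 (limma adjusted p = 0.239) and MPO at 0.21 ± 0.20 (0.679) in IKKb against IkB_SR. Among 5 epithelial and 9 fibroblast and endothelial markers, 5 and 6 were tested and 0 passed. Those with the smallest p were CDH1 at 0.28 ± 0.19 and KRT19 at -0.10 ± 0.12 in the first list, and COL1A2 at -0.84 ± 0.28 and COL1A1 at -0.31 ± 0.18 in the second. The part of such cells in the chemokine results was not tested.

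In LLC, both IKKb arrays had more Cxcl1 and Cxcl5 than both MiG arrays, and Cxcl2 was dim throughout. Cxcl1, the main neutrophil attractant of this group in mice, had signals of 2326 and 855 on the IKKb arrays numbered 1 and 2, against 478 and 239 on the MiG arrays of those numbers. Cxcl5 read 343 and 196 with IKKb, against 96.3 and 85.2 with MiG. The arrays numbered 1 were the brighter ones in both groups for both genes. Cxcl2 read 27.5 and 10.6 with IKKb and 25.8 and 19.7 with MiG, all dim, so that it was not tested.

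**Figure D4:**
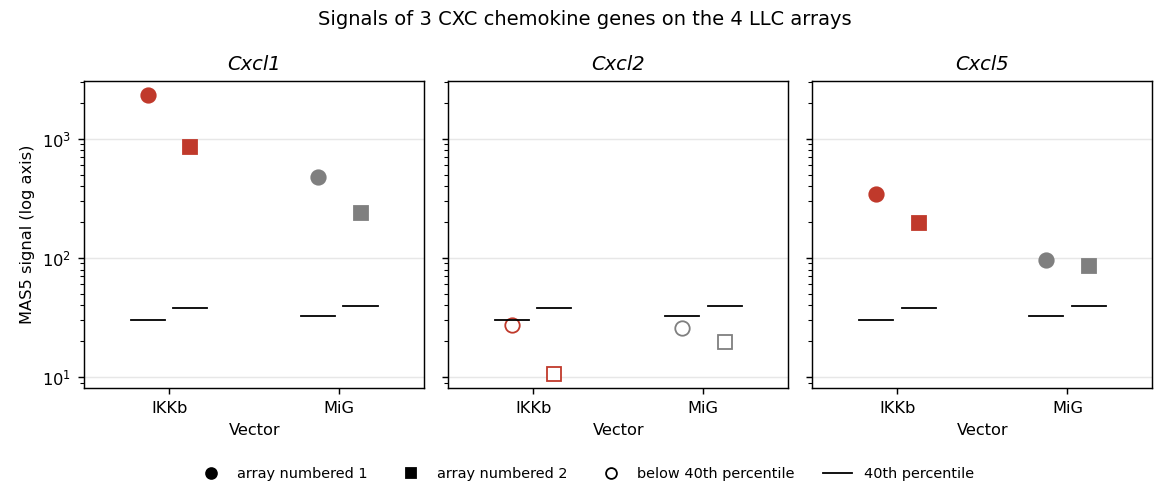
MAS5 signal (log axis) of Cxcl1, Cxcl2 and Cxcl5 on the 4 LLC arrays, IKKb left of MiG, with circles for arrays numbered 1 and squares for arrays numbered 2; short lines mark the 40th percentile and open symbols lie below it. The lower IKKb signal of Cxcl1, 855, lies above the higher MiG signal, 478, and all 4 Cxcl2 symbols are open.

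The log2 fold change was 2.01 ± 0.50 for Cxcl1 (4.03-fold; 95% interval 0.81 to 3.21) and 1.37 ± 0.34 for Cxcl5 (2.59-fold; 0.57 to 2.17). Neither passed (limma adjusted p = 0.9997 each), and 0% of the 12549 genes tested did; 238 of these had an unadjusted limma p under 0.05 (1.90%), and so did both chemokines. With the array number as a replicate block both passed (Cxcl1 limma adjusted p = 2.47e-13, Cxcl5 5.51e-04), as did 1.78% of all genes. That fit leaves almost no arrays to measure a gene's own spread. Its p-values thus rest mostly on the spread pooled over all genes and are not strong evidence of replication. What the numbers mark is not given in the sources used here; the arrays numbered 1 had mean Dap spike-in signals of 1195 with IKKb and 1273 with MiG, and those numbered 2 had 18.0 with IKKb and 19.0 with MiG. Within number 1 the IKKb to MiG signal ratio was 4.87 for Cxcl1 and 3.56 for Cxcl5, and within number 2 it was 3.58 and 2.30. Both IKKb arrays lay above both MiG arrays for 10.9% of all genes. With 1 array left out, the log2 fold change of Cxcl1 ran from 1.30 to 2.72 and that of Cxcl5 from 0.99 to 1.75. The lowest values came without the IKKb array numbered 1 and the highest without the IKKb array numbered 2. In those fits the lone array is assumed to vary like the other group, so their tests are not given. The 2 further Cxcl1 probe sets, 1441855_x_at and 1457644_s_at, gave 1.16 ± 0.39 and 1.96 ± 0.58.

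The other LLC lists held no gene past the threshold. Cxcr2 was dim on all 4 arrays, and Ackr1 lay at -0.37 ± 0.38. Ppbp and Pf4 were not dim on any LLC array, with Pf4 at 35.4 to 47.5, and lay at -0.31 ± 0.34 and -0.21 ± 0.38. Human PPBP was dim on 14 of 15 arrays and human PF4 on 7 of 15, with PF4 signals of up to 246. Of 11 inflammatory programme genes, 9 were dim on all 4 arrays and 1, Il1b, was tested, at 0.40 ± 0.41. Among 10 co-regulators and decay factors, Zc3h12a, an RNase gene that cuts inflammatory transcripts, lay at 0.61 ± 0.33 and Nfkbiz, an NF-kB cofactor, at 0.34 ± 0.19, the 2 with the smallest p. Leukocyte markers summed to 742 and 780 with IKKb and 810 and 825 with MiG, and neutrophil markers to 51.3 and 89.2 with IKKb and 82.1 and 86.4 with MiG. Ptprc, Itgam, Elane and Csf3r were dim on all 4 arrays, whereas Cd14 (503 to 566), Csf1r (65.3 to 124) and Cd68 (87.6 to 146) were dim on none and Mpo on 1. Cd68 lay at -0.32 ± 0.31, Csf1r at -0.24 ± 0.37 and Mpo at -0.25 ± 0.39. The 4 epithelial markers tested all had values below 0, Krt19 at -1.52 ± 0.49, Epcam at -1.10 ± 0.50, Krt18 at -0.49 ± 0.23 and Krt8 at -0.39 ± 0.19 (limma adjusted p = 0.9997 for each). Of these, Krt19 had an unadjusted limma p under 0.05. Krt19 was dim on 2 of the 4 arrays and Epcam on 1, so the 2 largest falls are of signals near the dim limit. The epithelial list summed to 9434 and 9885 with IKKb and 12088 and 14482 with MiG, so it was lower on the arrays with more Cxcl1 and Cxcl5. Of the fibroblast and endothelial markers, 4 were tested, with Pdgfrb at 0.49 ± 0.29 and Col3a1 at -0.47 ± 0.33, and their list summed to 10262 and 11518 with IKKb and 10890 and 20392 with MiG. The part of these markers in the chemokine results was not tested.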

How the data were processed

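The authors deposited a linear intensity for each probe set, made with GCOS 1.4 and MAS5 per the submitters' processing notes; the trimmed mean was checked to be 500 on every array. Probe sets were named through the platform annotation, in which 41097 of 54675 human and 34958 of 45101 mouse probe sets name 1 gene. The probe set with the highest mean log2(signal + 16) stood for a gene. Genes above the 40th percentile of the array on at least 5 human or 2 mouse arrays were kept. No further normalisation was applied.

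Human arrays were fitted with limma 3.58.1 in R 4.3.3 (lmFit, eBayes with an intensity trend, two-sided), with the cell line as a block, since same-numbered arrays come from the same line. Line levels were fitted with the vector as a term. LLC arrays were fitted without a block. The fitting code was run on simulated data with less spread than many of the human genes have, so that run is no support for the calls above. A ratio against a dim array is a lower bound, taken at that array's 40th percentile. Promoters were aligned with Biopython 1.88, and figures drawn with matplotlib 3.10.9. All members are named with their values; in each further list, genes that passed, or the 2 with the smallest p. Most alike genes were ranked by Pearson correlation of line-centred values. Members, lists and tests were chosen with earlier results of these data known. Alternatives were the pseudocount, filter, normalisation, probe sets, prior, block, the arrays in the fit, and arrays or lines left out; those without the array labelled H23 IkB_SR with single other probe sets and with adjustment over all probe sets were added after seeing the data. 1 leukocyte marker is not reported here. The number of arrays limits the precision of all values.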

Additional observations from a re-analysis of the deposited data

Results flagged for a closer look

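For each of the 6 human genes, the 5 arrays of each vector and the 5 line differences of each comparison were looked at, 36 sets of 5 values in all. In 4 of them, all sets of arrays, 1 value lay far from the other 4; chance alone marks about 1 in 20 such sets. CXCL2 on the PC9 IKKb array stood at 7.79 in log2(signal + 16), with the other IKKb arrays at 11.08 to 11.28. CXCL3 on the A549 MiG array stood at 9.37, with the other MiG arrays at 6.65 to 7.06. CXCL5 in A549 stood at 12.81 with IkB_SR, where the other lines lay at 4.32 to 5.10, and at 12.91 with MiG, where the other lines lay at 4.44 to 6.13. The arrays of a group are different cell lines, and the cause was not tested.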

How the results depend on the processing

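In IKKb against IkB_SR, the calls of CXCL1 and CXCL3 each held under 6 other settings and were lost under 13. That of CXCL2 held under 11 and was lost under 9. The fold changes of CXCL1, CXCL2, CXCL3, CXCL5 and CXCL8 stayed above 0 under every setting run. The count of these chemokines past the threshold was 1 with a pseudocount of 1 or with no filter on dim genes, 0 with the mean of a gene's probe sets, without an intensity trend, with a robust prior, or with only the arrays of the compared vectors, and 0 to 3 with 1 line left out. With no replicate block, that is without the cell line as a block, it was 0. The counts of 0 against MiG did not change under any setting, and 4 to 6 genes differed between lines with 1 line left out. In LLC the count was 2 with the replicate number as a block, a fit whose p-values rest mostly on the spread pooled over all genes. Calls from LLC fits with 1 array left out are not given. The labels do not say that the LLC numbers pair the arrays; deviations from the vector means, correlated over genes between arrays of 1 number, gave r = 0.53, and with 2 arrays a vector there is no second such value. Values near 0 changed sign. CXCL5 in IkB_SR against MiG ranged from -0.39 to 0.14 with 1 line left out and was 0.020 with probe set 215101_s_at. CXCL6 in IkB_SR against MiG was -0.17 with a pseudocount of 1, -0.27 without the array labelled H23 IkB_SR, and -0.31 to 0.24 with 1 line left out. CXCL6 in IKKb against IkB_SR was -0.057 with a pseudocount of 64 and -0.25 to 0.26 with 1 line left out, and in IKKb against MiG it was -0.0050 with a pseudocount of 1 and -0.058 to 0.13 with 1 line left out. The causes were not tested. CXCL5 and CXCL6 were dim on 9 of 15 arrays, which limits their fold changes, and probe sets with _x_at or _s_at names can bind related transcripts.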
